A study of Mus musculus with 6 samples.

Results

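Dendritic cells take up material and show it to T cells, and 8 genes by which they are usually recognised were followed here in megakaryocyte sorts from leukaemic and healthy mouse marrow. The genes were Itgax, Cd209a, Cd209d, Siglech, Clec9a, Xcr1, Zbtb46 and Batf3, chosen by name as textbook markers of dendritic cells, with earlier results of these data known. Each had 1 row of its own on the array, and together they are 8 of 30063 genes measured. Megakaryocytes, the polyploid marrow cells that shed platelets, had been sorted by flow cytometry as cells of high side scatter and high CD41 with a DNA content of at least 8N. The AML group comprised 3 arrays from mice with acute myeloid leukaemia induced by MLL-AF9, a fusion oncogene. The control group comprised 3 arrays from healthy mice. All mice were female C57 mice, and no age is given for them in the labels. Cells were sorted directly into Trizol, and total RNA was hybridised to an Affymetrix expression array, with 250 ng of RNA per labelling. Arrays of a group are labelled as biological replicates with no animals named, so the p-values reflect the spread among samples that may share a source. How the leukaemia was induced in the mice, and which cells carried the oncogene, is not stated in the labels.

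Dendritic cells develop in the marrow from progenitors that respond to the cytokine FLT3 ligand. Conventional dendritic cells of type 1 depend on the factor BATF3 and carry the receptors CLEC9A and XCR1, by which they bind dead cells and follow the chemokine XCL1. Conventional cells of type 2 present antigen mainly to helper T cells, while plasmacytoid dendritic cells, which carry SIGLECH in the mouse, secrete type I interferon on sensing nucleic acid. Several of these genes are not exclusive to dendritic cells: ITGAX is also carried by some macrophages and natural killer cells, and CD209A by monocytes.

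Values are deposited log2 levels after RMA, a method that corrects background, equalises array distributions and combines the probes of a row. The sign ± is the SD over n = 3 arrays, and differences are AML minus control. The threshold for a call was limma's adjusted p of 0.05 over all genes. No detection calls were at hand, so a group mean at or under 5.51 was taken as not shown to be above background. That level is the 95th percentile of the means of 1718 olfactory and vomeronasal receptor genes, a family used here as a stand-in for silent genes. Where 1 group lay under it, the fold is a lower bound, taken against the higher, on each array, of that array's own 95th percentile and the gene's value. The 3 AML arrays had medians over all genes of 5.29 to 5.32, the control arrays of 5.16 to 5.24, and the median difference over all genes was +0.11. AML array 3 stood apart in the receptor genes, with a 95th percentile of 6.24 there against 5.11 to 5.76 on the other arrays. Folds of genes with both group means above 5.51 are given as measured, even where the value on AML array 3 lay under 6.24. Such values were those of Ccr3 (5.83), Cd209g (5.87), Naaa (5.90), H2-Aa (5.96), Lair1 (6.20) and Cd274 (6.21), whose folds are given below. Of 16 measured megakaryocyte markers, 0 were called higher or lower, and all 16 were above background. Itga2b, which encodes CD41, stood at 9.22 ± 0.46 in AML and 9.04 ± 0.11 in control (adjusted p = 0.555), Pf4, platelet factor 4, at 11.98 ± 0.22 and 12.09 ± 0.12 (adjusted p = 0.546), the platelet chemokine gene Ppbp at 12.23 ± 0.16 and 12.37 ± 0.17 (adjusted p = 0.424), and the lineage factor gene Gata1 at 6.29 ± 0.15 and 6.01 ± 0.08 (adjusted p = 0.110).

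Itgax, Cd209a and Siglech were lower in AML, while Cd209d, Clec9a, Xcr1, Zbtb46 and Batf3 were not past the threshold. The 8 genes thus held 3 lower and 0 higher calls, against 6.25% of all 30063 genes called lower and 4.49% called higher. Among the 13242 genes with a mean above the background level, 12.1% were called lower and 4.98% higher. Those shares, from 1350 genes called higher and 1880 lower, depend on scaling, weights and single arrays. The numbers higher and lower were 505 and 2712 with median centring and 4839 and 3014 with array weights. Leaving out control array 2 gave 185 and 782, control array 3 236 and 822, AML array 1 647 and 1291, and AML array 2 402 and 1071. The 8 genes gave 0 higher and 3 lower calls in each of these fits, except that 2 were lower without control array 2. Their median difference was -0.13, beside +0.11 over all genes. It was -0.27 after renewed quantile normalization or cyclic loess, -0.25 after median centring, -0.06 without AML array 1 and -0.65 over the genes left when those under the background level were dropped. Xcr1, Zbtb46 and Cd209d were not above background in either group, Cd209a and Siglech were above it in control alone, and Itgax, Batf3 and the row of Clec9a were above it in both.

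**Figure D1:**
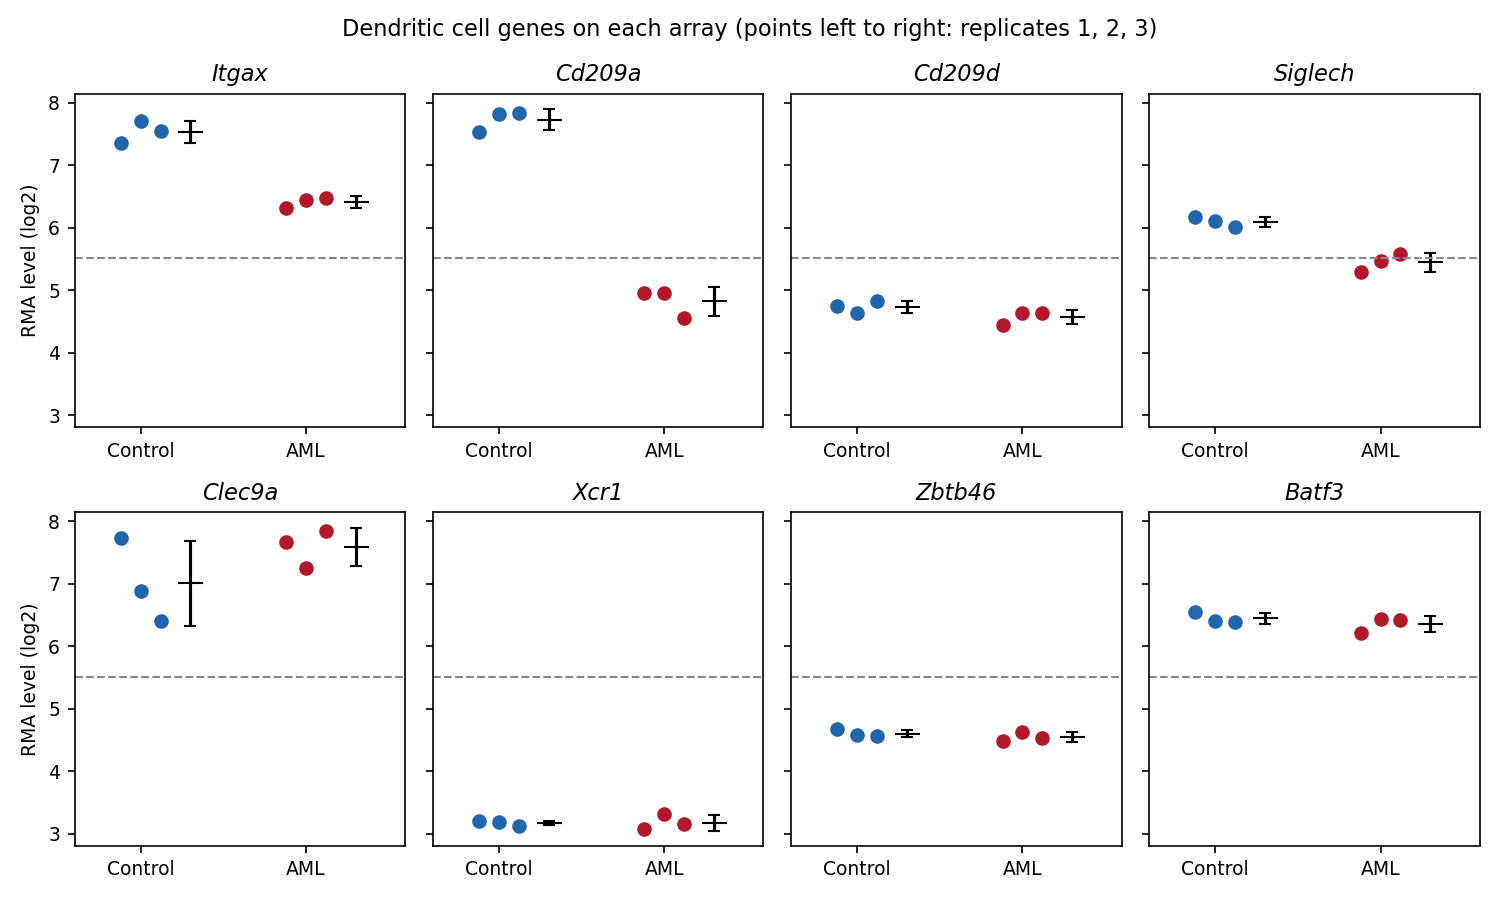
RMA level (log2, vertical axis) of each of the 8 genes on the 3 control arrays (blue) and the 3 AML arrays (red), with the group mean and SD beside the points in black. The dashed line is the background level of 5.51. Groups are well separated for Itgax and Cd209a and by less for Siglech, while Clec9a spreads from 6.40 to 7.73 among the control arrays.

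The stretches upstream of the 3 genes that fell are shown with that of Cd209d, the lectin gene that shares a cluster with Cd209a and was not called. They come from a RefSeq table on the mouse build GRCm38.p6, which gives the 250 bases before a transcript start and holds all 8 genes. That start lies at the outer boundary of the RefSeq gene record for Cd209a, Clec9a, Xcr1 and Batf3, but 24 bases inside it for Itgax, 30 for Siglech, 49 for Cd209d and 68874 for Zbtb46. Only bases outside the gene record are printed, 5′ to 3′ on the gene's strand. Capitals mark matches to 4 motifs searched on both strands of the 250-base windows.
Itgax chr7:128129300-128129525 (+ strand): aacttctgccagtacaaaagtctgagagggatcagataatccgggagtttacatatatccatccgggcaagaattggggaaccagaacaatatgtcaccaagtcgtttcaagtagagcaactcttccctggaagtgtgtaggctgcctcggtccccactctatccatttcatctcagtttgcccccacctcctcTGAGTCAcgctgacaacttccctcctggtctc
Cd209a chr8:3748985-3749234 (- strand): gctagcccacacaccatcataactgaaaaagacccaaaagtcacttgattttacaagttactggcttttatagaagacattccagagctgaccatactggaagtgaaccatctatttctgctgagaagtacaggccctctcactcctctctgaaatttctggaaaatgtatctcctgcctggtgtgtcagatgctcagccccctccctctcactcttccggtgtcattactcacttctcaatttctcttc
Siglech chr7:55767934-55768153 (+ strand): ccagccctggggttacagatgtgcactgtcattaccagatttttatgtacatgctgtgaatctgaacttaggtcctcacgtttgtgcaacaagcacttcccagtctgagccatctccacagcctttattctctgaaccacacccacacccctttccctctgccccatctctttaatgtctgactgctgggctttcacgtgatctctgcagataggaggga
Cd209d chr8:3878549-3878749 (- strand): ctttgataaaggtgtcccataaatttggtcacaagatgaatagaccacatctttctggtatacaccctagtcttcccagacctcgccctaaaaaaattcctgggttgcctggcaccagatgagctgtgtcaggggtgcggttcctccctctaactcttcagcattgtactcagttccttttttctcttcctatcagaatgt
The motifs were the AP-1 site TGANTCA, the PU.1 core GAGGAAG, the interferon response element and the E box CAGCTG. Itgax held 1 AP-1 match, the letters TGAGTCA ending 26 bases before the gene record and 50 before the start in the table, and the windows of Cd209a, Siglech and Cd209d held 0 matches to any of the 4 motifs. Of the genes not shown, Batf3 held 1 PU.1 core match, and Clec9a and Xcr1 0. Zbtb46 held 1 AP-1 match, in a window that lies wholly inside its gene record and is not upstream of the gene. Over all 32851 windows of this length in the table, 6.75% held the AP-1 site, 10.6% the PU.1 core, 2.98% the interferon response element and 13% the E box. No motif of the 4 was found in more than 1 of the 3 genes that fell.

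Among the receptors, Itgax encodes CD11c, the integrin alpha subunit that pairs with the beta subunit encoded by Itgb2 to bind complement fragments. Its levels were 7.35, 7.70 and 7.54 on control arrays 1, 2 and 3 and 6.31, 6.44 and 6.48 on the AML arrays. Every AML array lay below every control array. The means were 7.53 ± 0.18 and 6.41 ± 0.09, a difference of -1.12 (SE 0.11, 95% CI -1.37 to -0.87), so that Itgax was 2.18-fold lower in AML (adjusted p = 0.00175). Both groups were above background. In bulk samples such as these, fewer cells that carry a transcript and less of it per cell cannot be told apart.

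Cd209a encodes a C-type lectin related to human DC-SIGN, which binds mannose-rich sugars on microbes. It stood at 7.53, 7.82 and 7.84 on the control arrays and at 4.95, 4.96 and 4.55 on the AML arrays. The 3 AML values all lay below the 3 control values. The difference of -2.91 (SE 0.14, 95% CI -3.24 to -2.58, adjusted p = 0.000281) was the 8th lowest of all 30063 genes. Since the AML mean of 4.82 was not above background, the fall is stated as at least 3.64-fold.

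Siglech encodes a receptor of the Siglec lectin family on plasmacytoid dendritic cells that signals through the adaptor DAP12. Its control levels of 6.17, 6.11 and 6.01 lay above all AML levels, which were 5.29, 5.46 and 5.58. The difference was -0.65 (SE 0.10, 95% CI -0.88 to -0.42, adjusted p = 0.0096). The AML mean of 5.45 was not above background, which leaves a fall of at least 1.17-fold. Without control array 2 the difference was -0.65 but the call was lost (adjusted p = 0.0533).

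Cd209d, a second lectin of the Cd209 cluster, was not above background in either group. Its levels were 4.74, 4.64 and 4.83 in control and 4.44, 4.63 and 4.63 in AML, a difference of -0.17 (95% CI -0.38 to 0.04, adjusted p = 0.217). The highest AML value lay just under the lowest control value, so that the groups did not overlap. Cd209d, Itgax, Cd209a and Siglech were the 4 of the 8 genes without overlap between groups, a pattern shared by 41.3% of all genes and, with AML lower, by 13.1%.

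Xcr1 encodes the chemokine receptor of type 1 conventional cells. It was read at 3.20, 3.19 and 3.13 in control and 3.07, 3.32 and 3.15 in AML, under the background level throughout. Its difference was 0.01 (95% CI -0.20 to 0.21, adjusted p = 0.967). The gene of its ligand, Xcl1, was not above background either, at 5.08 ± 0.13 in control and 5.11 ± 0.39 in AML.

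Clec9a, whose product recognises actin filaments exposed by dead cells, varied widely among the control arrays. Its control levels were 7.73, 6.88 and 6.40 and its AML levels 7.67, 7.25 and 7.85. Control array 1 lay among the AML arrays, so the groups overlapped. The means of 7.00 ± 0.67 and 7.59 ± 0.31 differed by +0.59 (SE 0.33, 95% CI -0.19 to 1.37, adjusted p = 0.240). The SD among the control arrays was above that of 99.5% of genes. Leaving out 1 array moved the difference between +0.29, without control array 3, and +0.95, without control array 1, where the adjusted p was 0.0507. The 95th percentile of the receptor genes was 5.60, 5.19 and 5.11 on control arrays 1, 2 and 3 and 5.59, 5.76 and 6.24 on the AML arrays. Both were highest on control array 1 and lowest on control array 3 among the controls and highest on AML array 3, but Clec9a was lowest in AML on array 2 and the percentile on array 1. The part of this shift of the receptor genes in the level of Clec9a was not tested. How much of the signal of this row comes from Clec9a transcript was not tested either, so the level given is that of the row.

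The 2 transcription factor genes showed small differences. Zbtb46 encodes a zinc finger factor that marks conventional dendritic cells and their committed precursors. It was not above background, at 4.67, 4.58 and 4.56 in control and 4.48, 4.63 and 4.53 in AML, a difference of -0.06 (95% CI -0.23 to 0.12, adjusted p = 0.611). Batf3, an AP-1 family factor needed for type 1 conventional cells, was above background in both groups, at 6.55, 6.41 and 6.39 in control and 6.21, 6.44 and 6.42 in AML. The groups overlapped, and the difference of -0.09 had a 95% CI of -0.31 to 0.13 (adjusted p = 0.487). A fall of Batf3 as large as that of Itgax lies outside this interval.

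**Figure D2:**
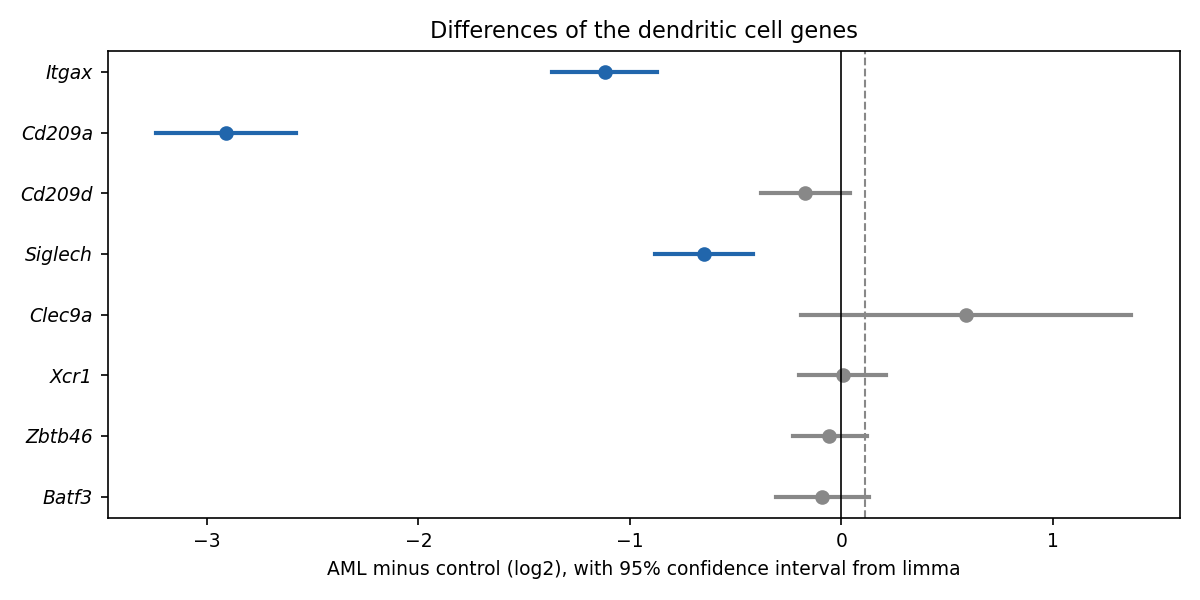
Difference between AML and control (log2, horizontal axis) for each of the 8 genes, with the 95% confidence interval from limma. Blue marks the 3 genes called lower, grey the 5 not called, and the dashed line is the median difference over all genes, +0.11. Cd209a lies furthest left at -2.91, and Clec9a has the widest interval, -0.19 to 1.37.

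The genes with the closest profiles were sought among the 13242 genes above the background level. Closeness was the Euclidean distance between profiles over the 6 arrays, each profile centred on its own mean, which is a description only. For Itgax the 3 closest were Pirb, an inhibitory immunoglobulin-like receptor gene (distance 0.13), Gpr132, a G protein-coupled receptor gene (0.13), and the kinase gene Sgk1 (0.16). Pirb stood at 9.26, 9.57 and 9.35 in control and 8.24, 8.33 and 8.25 in AML, a difference of -1.12 as for Itgax. For Cd209a they were Fcnb, the gene of the lectin ficolin B (distance 0.32), Fcer1a, of the high-affinity IgE receptor (0.49), and H2-Eb1, an MHC class II chain (0.51). Their differences were -2.78, -2.54 and -2.71. The AML mean of Fcer1a, 4.5, was not above background, which leaves a fall of at least 2.26-fold. For Siglech the 3 closest were Med7, a Mediator subunit gene, Donson, a DNA replication gene, and Rbpms, an RNA-binding protein gene. Each lay at a distance of 0.18, with differences between -0.61 and -0.58. The AML mean of Rbpms, 5.42, was not above background. For Clec9a, looked up after its values were seen, the 3 closest were the vomeronasal receptor genes Vmn1r160 (0.32), Vmn1r152 (0.36) and Vmn1r128 (0.37). Vmn1r160 stood at 5.73, 5.19 and 4.80 in control and 5.87, 5.61 and 6.08 in AML, with the same high control array 1 and low control array 3 as Clec9a.

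**Figure D3:**
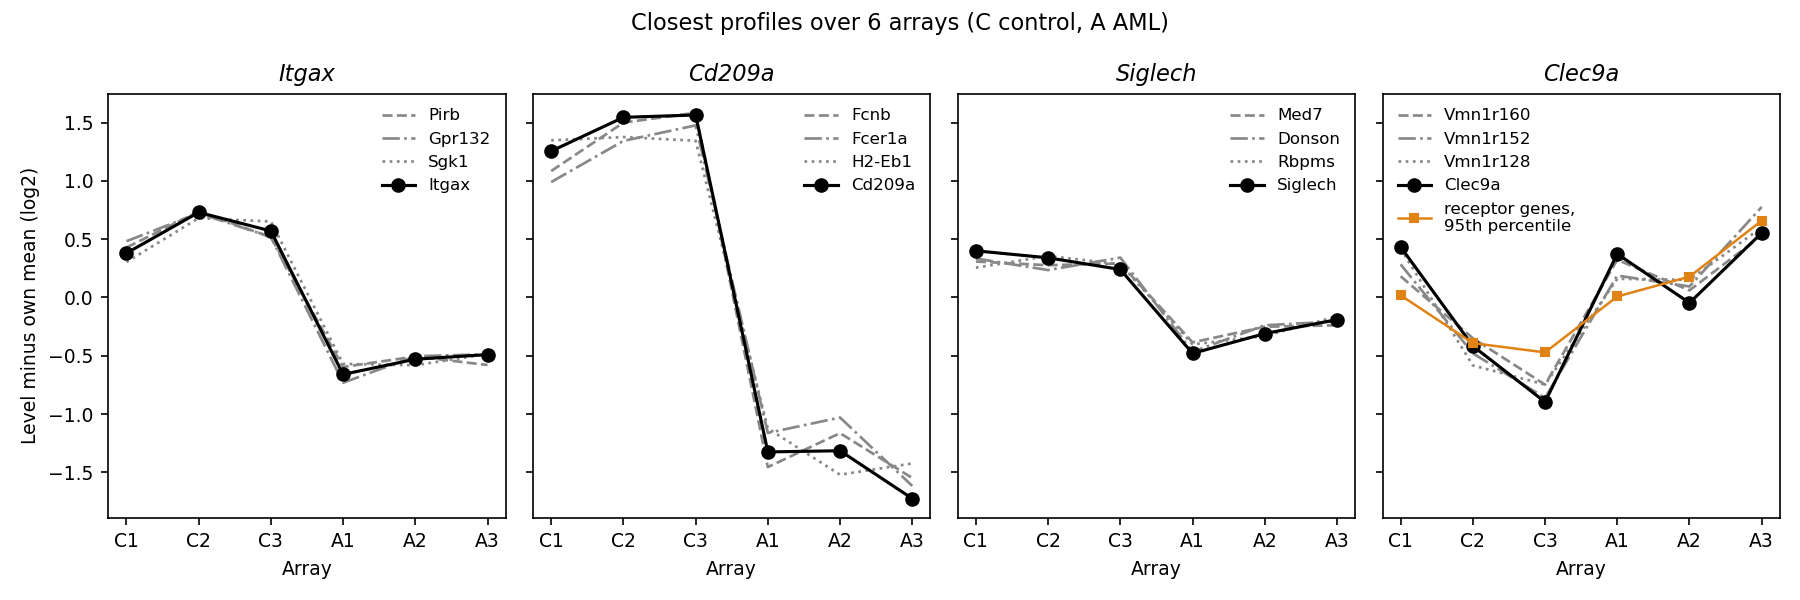
Level minus its own mean over the 6 arrays (log2, vertical axis) on control arrays C1 to C3 and AML arrays A1 to A3, for 4 of the dendritic cell genes (black) and the 3 genes closest to each (grey). Itgax, Cd209a and Siglech step down between control and AML, while Clec9a is drawn with 3 vomeronasal receptor genes and, in orange, the 95th percentile of the receptor genes on each array, all high on C1 and low on C3 among the controls.

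Some relatives of the 8 genes were lower in AML as well. In all, 8 of 24 were lower and 1 higher, beside 6.25% and 4.49% of all genes. The number lower was 5 without control array 2 or 3 and 11 with array weights. Of the 7 Cd209 lectin genes, Cd209a, Cd209f and Cd209g were lower and 4 were not called. Cd209g fell from 7.75 ± 0.22 to 6.03 ± 0.15, or 3.29-fold (adjusted p = 0.000844), and Cd209f from 8.00 ± 0.23 to 6.56 ± 0.22, or 2.72-fold (adjusted p = 0.00255). In the gene order of GRCm38.p6, Cd209a lies at one end of the cluster and Cd209f and Cd209g lie side by side at the other. Cd209e, Cd209d, Cd209b and Cd209c lie between them and were the 4 not called. These genes are close paralogs, and signal shared between their probes was not measured.

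Of the 5 integrin genes of the CD11 and CD18 family, 3 were lower. Beside Itgax these were Itgal and Itgad, alpha subunits named after their values were seen, which fell by 0.76 and 0.71. Without control array 2 or 3 neither was called, and without AML array 1 or 2 Itgal was not. Itgam, a further alpha subunit also named after its values were seen, differed by -0.74 and was not called (adjusted p = 0.0502). Itgb2, the shared beta subunit, stood at 9.50 ± 0.14 in control and 9.16 ± 0.19 in AML (adjusted p = 0.105). Of the 6 Siglec genes, Siglech and Siglec1, named after its value was seen, were lower, the latter not without AML array 2 or control array 2 or 3. Cd33 was the 1 gene called higher among all relatives. Cd33, a Siglec gene of myeloid cells, rose from 8.01 ± 0.11 to 8.86 ± 0.38 (adjusted p = 0.032). Its call was lost under median centring and without any single array other than AML array 3, with adjusted p up to 0.116.

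Of Clec9a and its 5 relatives in the lectin list, only Clec7a was called among the 6. Clec7a encodes dectin-1, a receptor for fungal glucans, and fell 3.26-fold, from 10.16 ± 0.22 to 8.45 ± 0.30 (adjusted p = 0.00225). Clec1b, the podoplanin receptor of megakaryocytes and platelets, stood at 10.78 ± 0.37 and 10.92 ± 0.22 (adjusted p = 0.617). All 3 Batf genes were uncalled, Batf at 6.90 ± 0.01 in control and 6.88 ± 0.05 in AML (adjusted p = 0.902). Both chemokine receptor relatives of Xcr1 on the list were lower. Ccr3, the eotaxin receptor gene, fell 7.08-fold, from 8.94 ± 0.20 to 6.12 ± 0.50 (adjusted p = 0.00137), and Cx3cr1, the fractalkine receptor gene, fell 1.68-fold (adjusted p = 0.00229).

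Other dendritic cell genes were read from 5 lists by subset and role. These lists were chosen with earlier results of these data known. Of 76 measured, 29 were lower and 0 higher, with a median difference of -0.32. Over all genes 6.25% were called lower, and 12.1% of those above the background level. With the relatives above, 100 genes were measured, of which 37 were lower and 1 higher. The 37 became 24 without control array 2, 22 without control array 3 and 49 with array weights. Runx2, Zeb2, Csf2rb, Spi1, Cacnb3 and Cd74 were not analysed here.

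In the list of type 1 conventional cells, 5 of 16 genes were lower, and 3 were so without control array 2 or 3. The count was 8 of 16 with array weights, median centring or cyclic loess. With genes at or under the background level dropped, 7 of the 8 left were lower. Naaa, a lysosomal lipid amidase gene, fell 3.80-fold from 7.81 ± 0.11 to 5.88 ± 0.06 (adjusted p = 0.000191). Id2, an inhibitor of E proteins that type 1 cells need, fell 2.58-fold, and Cd24a, a surface glycoprotein gene, fell 1.88-fold. The defining surface genes Itgae, Ly75 and Cd8a were not above background in either group, and 8 of the 16 genes were so. In the list of type 2 conventional cells, 12 of 16 were lower, or 7 without control array 2 or 3, and 14 were above background in at least 1 group. The decoy receptor gene Il1r2 fell 5.31-fold from 9.36 ± 0.21 to 6.95 ± 0.22 (adjusted p = 0.000447). The lectin genes Clec10a and Clec4a2 fell 1.94-fold and 2.20-fold. Many genes of this list are also carried by monocytes and neutrophils.

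In the plasmacytoid list, to which Siglech belongs by function, 4 of 18 genes were lower. That count was 1 without control array 3 and 6 with array weights or median centring. Lair1, an inhibitory collagen receptor gene, fell 2.20-fold from 7.21 ± 0.11 to 6.07 ± 0.17 (adjusted p = 0.0018). The nucleic acid sensor genes Tlr7 and Tlr9 fell by 1.71 and 1.04, and both calls were lost without control array 3 (adjusted p = 0.0561 and 0.0595). Tcf4, the E protein that sets plasmacytoid identity, stood at 6.61 ± 0.11 in control and 6.22 ± 0.15 in AML (adjusted p = 0.0566). Of 11 growth factor and receptor genes, 2 were lower, or 4 with array weights. Csf1r, the receptor of macrophage colony-stimulating factor, fell 2.24-fold (adjusted p = 0.00274), and the transcription factor gene Bcl11a, under the background level in both groups, by 0.46. Bcl11a lost its call without AML array 1 or 2 or control array 2 or 3, which left Csf1r alone. Flt3 was not above background, at 5.35 ± 0.04 in control and 5.08 ± 0.06 in AML (adjusted p = 0.0515).

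Among genes of mature, antigen-presenting dendritic cells, 6 of 15 were lower. H2-Aa, an MHC class II alpha chain, fell 5.74-fold from 8.46 ± 0.11 to 5.94 ± 0.11 (adjusted p = 9.11e-05). The costimulator gene Cd86 fell 5.56-fold from 9.46 ± 0.08 to 6.98 ± 0.23 (adjusted p = 0.000299), and Cd274, the gene of the checkpoint ligand PD-L1, fell 2.32-fold. Ccr7, the homing receptor that mature dendritic cells follow to lymph nodes, stood at 7.15 ± 0.10 and 6.87 ± 0.22 (adjusted p = 0.162). Fscn1, Ccl22 and Il12b were not above background in either group.

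**Figure D4:**
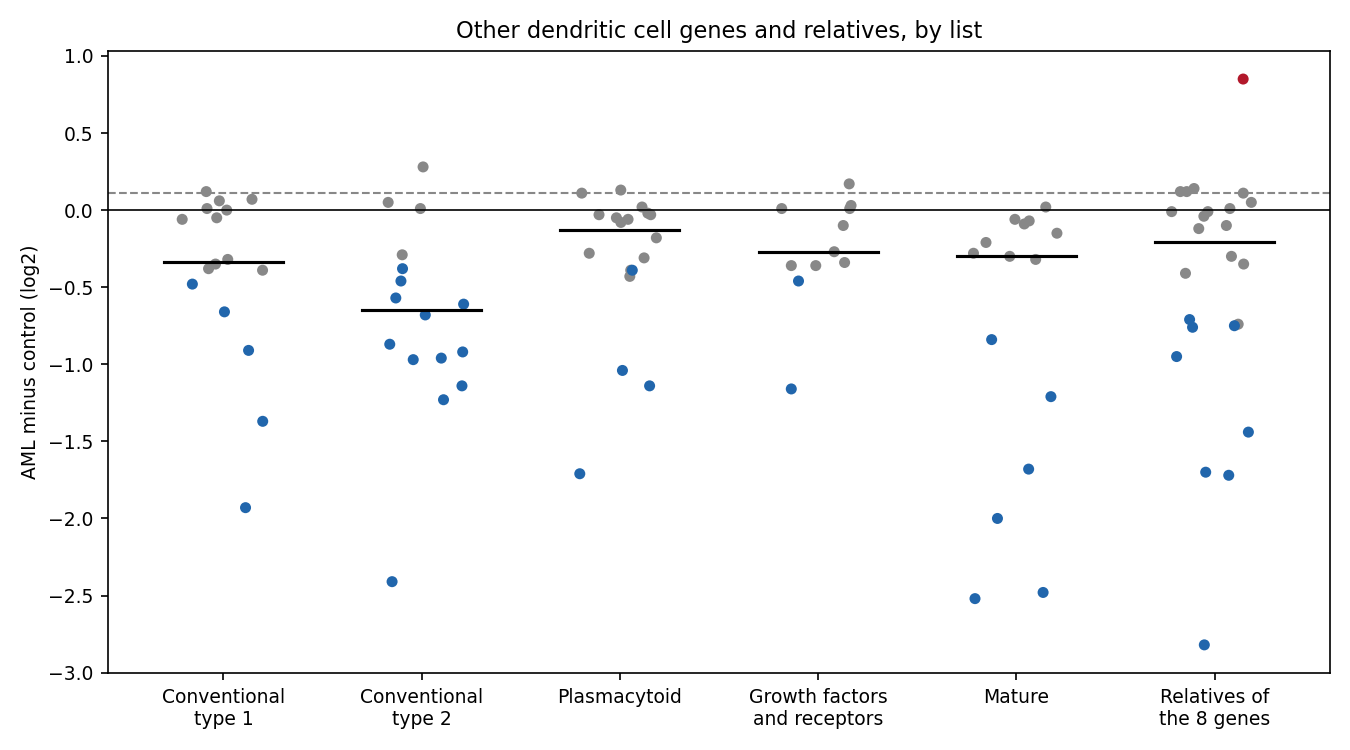
Difference between AML and control (log2, vertical axis) of each gene in 6 lists, with blue for genes called lower, red for the gene called higher and grey for the rest. Black bars are list medians, from -0.64 in the type 2 list to -0.13 in the plasmacytoid list, and the dashed line is the median over all genes, +0.11.

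Markers of other cells of the marrow moved in the same sorts, where 6.25% of all genes were called lower and 4.49% higher. Of 10 monocyte markers, 8 were lower and 9 were above background, and their mean level ran from 6.81 to 6.92 on the AML arrays and from 8.12 to 8.32 on the control arrays. The monocyte marker gene Ms4a6c fell from 9.30 ± 0.14 to 7.99 ± 0.23 (adjusted p = 0.00218), while Ly6c2 stood at 11.95 ± 0.10 and 12.27 ± 0.30 (adjusted p = 0.187). Of 12 macrophage markers, 10 were lower, with means of 6.99 to 7.65 in AML and 8.23 to 8.40 in control. That count fell to 6 when AML array 2 was left out, and to 3 when control array 2 or control array 3 was. C1qb, a complement subunit gene, fell by 1.15 (adjusted p = 0.020), a call that needed AML array 2 and control arrays 2 and 3. Vcam1, an adhesion molecule gene, stood at 9.37 ± 0.05 in control and 8.69 ± 0.49 in AML (adjusted p = 0.0891). All 9 neutrophil markers were lower, at 8.62 to 9.01 in AML and 10.37 to 10.69 in control. The granule gene Ngp fell by 1.11 and the resistin-like gene Retnlg by 1.06.

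Of 7 basophil and mast cell markers, 4 were lower, with means of 6.46 to 6.89 in AML and 7.78 to 8.11 in control. Mcpt8, a basophil protease gene, fell by 1.95, and the histidine decarboxylase gene Hdc stood at 9.68 ± 0.25 in control and 8.72 ± 0.70 in AML (adjusted p = 0.103). Of 6 eosinophil markers, 3 were lower, with means of 8.05 to 8.62 and 9.20 to 9.52. The granule protein gene Prg2 fell by 0.44 (adjusted p = 0.0468), a call that leaving out any single array but AML array 3 removed, and Prg3 stood at 10.63 ± 0.18 in control and 10.09 ± 0.49 in AML (adjusted p = 0.164). Of 8 B cell markers 4 were lower, with means of 5.16 to 5.27 and 5.64 to 5.78, of 5 plasma cell markers 2, at 5.67 to 6.03 and 6.28 to 6.52, and of 6 endothelial markers 4, at 5.22 to 5.53 and 5.85 to 6.14. Without control array 2 these 3 counts were 2, 0 and 2, and without AML array 2 they were 2, 1 and 1. The B cell count was also 2 without AML array 3 or control array 1, the plasma cell count 1 without control array 3, and the endothelial count 2 without control array 1 or 3. The B cell receptor subunit gene Cd79b fell by 0.39 (adjusted p = 0.0483), a call kept when AML array 1 was left out and lost when each of the other arrays was, and Blnk, a B cell adaptor gene, differed by -0.95 (adjusted p = 0.0505). Jchain, the immunoglobulin joining chain gene of plasma cells, differed by -2.14 (adjusted p = 0.0264), a call lost without AML array 2 and without control array 2 or 3. The AML mean of Jchain, 4.89, was not above background, which leaves a fall of at least 2.09-fold. Xbp1, a secretory factor gene, differed by -0.04 (adjusted p = 0.847). The endothelial cadherin gene Cdh5 differed by -1.08 (adjusted p = 0.0348), not called without AML array 2 or without any of the control arrays. The AML mean of Cdh5, 5.35, was not above background, so the fall is at least 1.41-fold. The receptor gene Kdr differed by -0.30 (adjusted p = 0.199).

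T cell markers, with 1 of 6 called higher, and NK cell markers, with 1 of 6 higher and 1 lower, were above background for 1 gene in each list. The called genes, Bcl11b of the T cell list and Ncr1 (higher) and Klrk1 (lower) of the NK cell list, were not above background in either group. The T cell call was kept only without AML array 3 and the higher NK cell call only without control array 1, among the fits with 1 array left out. Cd8b1, a T cell coreceptor gene, stood at 5.34 ± 0.09 in control and 5.58 ± 0.12 in AML (adjusted p = 0.121), and Cd247, of the T cell receptor complex, at 5.16 ± 0.05 and 5.25 ± 0.06 (adjusted p = 0.386). Nkg7, a granule gene of cytotoxic cells, stood at 8.83 ± 0.18 and 8.94 ± 0.27 (adjusted p = 0.647), and Klrb1c, an NK receptor gene, at 4.58 ± 0.26 and 4.96 ± 0.10 (adjusted p = 0.113). Of 4 erythroid markers 2 were lower, with means of 5.38 to 5.50 in AML and 5.72 to 5.79 in control. Epor, the erythropoietin receptor gene, differed by +0.19 (adjusted p = 0.323), and the anion exchanger gene Slc4a1 fell by 0.57 (adjusted p = 0.0278), a call not made without AML array 2 or control array 2 or 3. The median difference was -1.6 in the neutrophil list, -1.26 in the monocyte list, -1.14 in the basophil and mast cell list and -1.07 in the macrophage list. Which cells the transcripts of Itgax, Cd209a and Siglech came from, and the part of these other cells in their falls, was not tested.

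**Figure D5:**
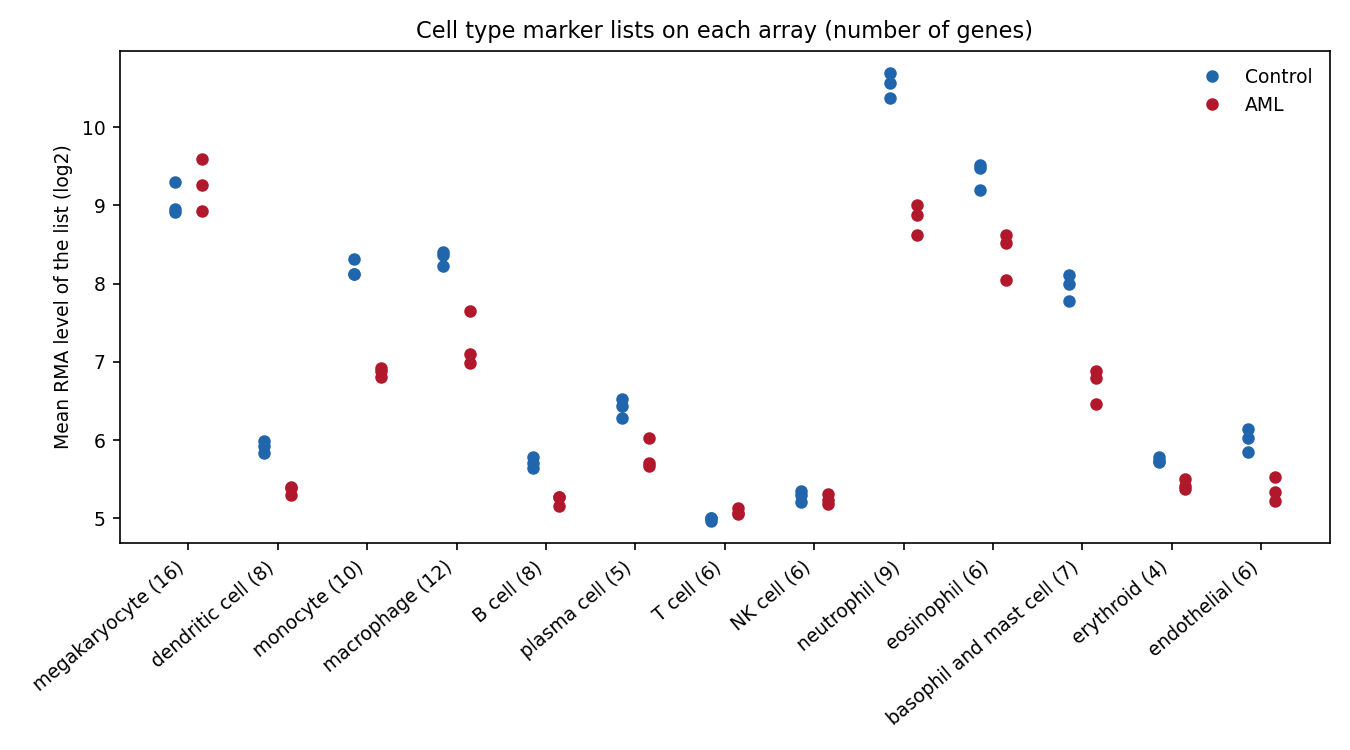
Mean RMA level (log2, vertical axis) of 13 cell type marker lists on each control array (blue) and AML array (red), with the number of measured genes in brackets. The megakaryocyte list overlaps between groups, at 8.93 to 9.59 in AML and 8.91 to 9.30 in control, as does the NK cell list. The T cell list lies higher in AML, and all other lists lie lower in AML without overlap. Among these, the dendritic cell list lies at 5.3 to 5.4 in AML and 5.84 to 5.99 in control.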

How the data were processed

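The values that the authors deposited are on a log2 scale and come from RMA, per the submitters' processing notes (version and array build not given in the sources used here). Of 72688 rows, 30604 had 1 gene symbol in the platform annotation, 2146 had several and 39938 had none. Symbols were updated through RefSeq names (GRCm38.p6): 22917 by gene number, 7383 by symbol, 302 by synonym and 2 unmatched. For 429 genes with several rows the row with the highest mean was kept, which left 30063 genes. The 8 genes and all lists were chosen with earlier results of these data known.

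AML was compared with control by limma (lmFit and eBayes, two-sided, Benjamini-Hochberg over all genes, no filter), 3 arrays each. The number of arrays limits the precision. On simulated data for this comparison, with 30063 genes, the fit found 25 of 50 genes with 1.5-fold changes and 42 of 50 with 2-fold changes, with 7 false calls. The simulated noise was drawn independently for each gene from limma's own estimates, with no differences between arrays. These rates hold under those assumptions and were not measured on the real arrays. Same-numbered arrays did not deviate together (correlations across genes of -0.36, 0.142 and -0.291), so the numbers were not used as pairs. RMA makes array distributions alike, which hides a change common to most genes. No protein sequences were at hand.

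Named were the 8 genes, up to 3 genes lower and 3 higher with the smallest p of each other list, the brightest relative of each family, the 2 brightest markers of each cell type list, Itga2b, Pf4, Gata1 and closest profiles. Other genes named were chosen after their values were seen, as were the closest profiles of Clec9a. Alternatives were the replicate block, array weights, a mean-variance trend, median centring, cyclic loess, quantile normalization again, 3 filters on dim genes, averaging rows of a gene, omitting each array, a 2-fold minimum and other background percentiles. The software was limma 3.58.1 and the data.table package (1.17.8) under R 4.3.3, and numpy 2.4.6, pandas 2.3.3 and matplotlib 3.10.9 under Python 3.11.15.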

Additional observations from a re-analysis of the deposited data

How the results depend on the processing

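Itgax and Cd209a kept direction and call in all 16 alternatives run for them, with differences of -1.24 to -1.04 and -3.03 to -2.77. Siglech kept its call in 14 of 16, losing it without control array 2 (adjusted p = 0.0533) and with the replicate number as a block (adjusted p = 0.056). Cd209d passed in 1 of 14, renewed quantile normalization (difference -0.33, adjusted p = 0.0493). Clec9a, Xcr1, Zbtb46 and Batf3 passed in 0 of theirs. The count of the 8 genes called lower was 2 to 4, and that called higher was 0 throughout. Their median difference was -0.27 after quantile normalization or cyclic loess, -0.25 after median centring and -0.65 without genes below the median or under the background level, where fewer of the 8 remained, and -0.17 to -0.06 with 1 array left out. With the 99th percentile of the receptor genes, 6.69, as background, 3 of the 8 were above it in at least 1 group, against 5. Siglech (control mean 6.1) and Batf3 (control mean 6.45) were then not above background in either group.

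Over all genes, calls higher and lower numbered 206 and 861 with the replicate block, 4839 and 3014 with array weights, 505 and 2712 with median centring and 115 and 447 with a 2-fold minimum. With 1 array left out they ranged from 185 to 1639 higher and from 782 to 1967 lower. Of the 100 other dendritic cell genes and relatives, 24 were lower with the replicate block and 18 with the 2-fold minimum, against 37, and 22 to 37 with 1 array left out. The number lower rose to 49 with array weights, 46 with median centring and 45 with cyclic loess. The 1 higher became 0 with centring or the 2-fold minimum, and 0 to 1 with 1 array left out. The causes were not tested.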

Other observations

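Of the 50 genes whose profiles over the 6 arrays lay closest to that of Clec9a, 22 were olfactory or vomeronasal receptor genes. Such genes were 86 of the 13242 searched, or 0.649%. That share was low by construction, since the search kept only genes above a background level set from these same 1718 receptor genes. The 86 were the brightest of them, so the share is no base rate for the 22 of 50. The count of receptor genes among the closest was 0 of 50 for Itgax, Cd209a, Siglech and Batf3. It was made after the values were seen, as a description.

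Cd83, a surface gene of mature dendritic cells, had the widest spread among the AML arrays of the genes in its list, at 6.04, 5.74 and 4.07 on AML arrays 1, 2 and 3 against 7.39, 7.30 and 7.16 on the control arrays. It was called lower (difference -2.00, adjusted p = 0.0411). The AML mean of 5.28 was not above background, which leaves a fall of at least 2.41-fold. Of the 2 rows of Cd83, the one with the higher mean was kept. The call was lost without AML array 2 or any single control array, with the replicate block and after renewed quantile normalization. Tlr7 was likewise lowest on AML array 3, at 7.05, 6.55 and 5.89 against 8.27, 8.06 and 8.30.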
